A study of Mus musculus with 2 samples.

Results

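Paneth cells are the secretory cells at the base of small intestinal crypts, and 400 of the 7784 cells kept from mouse duodenal crypts were counted as Paneth cells here. They were selected on their own transcript counts. A barcode was kept if it held 500 genes or more and if mitochondrially encoded genes gave no more than 25% of its UMIs, the molecular tags that stand for single captured RNA molecules. It was a Paneth cell if Lyz1 and Defa24 together made up at least 5% of its UMIs, if it held fewer than 5 UMIs of Chga and Chgb, the granins of hormone-secreting cells, and if it held 0 UMIs of Ptprc, the leukocyte surface phosphatase CD45. Of 431 kept cells at or past the share, 9 were left out by the granins, 25 by Ptprc and 3 of these by both.

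The study profiled crypts of wild-type mice in 2 groups, ES and NT, which the labels do not spell out, in a series whose title names chronic stress and intestinal stem cell ageing. Crypts freed with 5 mM EDTA were dissociated, and the cells of 5 animals per group were pooled, so each group is 1 library without replicates. Barcodes end in 2 or 1, and no label ties either number to ES or NT. All comparisons are therefore between library 2 and library 1 and have no test.

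Paneth cells package antimicrobial peptides and enzymes in apical granules and release them into the crypt lumen. In mice the alpha-defensins, also called cryptdins, are made as precursors that the metalloproteinase matrilysin (Mmp7) cleaves to the active form. The same cells border the Lgr5-positive stem cells and present Wnt, EGF and Notch ligands to them.

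The alpha-defensins are a family of near-copies, and the copies matter for what a count can mean, so the coding ends of the abundant members are shown first. The last 120 coding bases, stop codon included, are given 5′ to 3′ from GENCODE M21 on GRCm38 (the mm10 assembly). Capitals mark bases that differ from Defa24 at the same position.
Defa24: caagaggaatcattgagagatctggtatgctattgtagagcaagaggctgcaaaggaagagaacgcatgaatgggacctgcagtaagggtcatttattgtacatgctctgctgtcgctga
Defa30: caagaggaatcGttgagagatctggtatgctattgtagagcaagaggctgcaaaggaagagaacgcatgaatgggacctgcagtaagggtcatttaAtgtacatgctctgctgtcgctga
Defa17: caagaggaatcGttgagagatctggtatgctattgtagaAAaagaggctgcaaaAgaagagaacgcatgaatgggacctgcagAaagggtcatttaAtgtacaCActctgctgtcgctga
Defa21: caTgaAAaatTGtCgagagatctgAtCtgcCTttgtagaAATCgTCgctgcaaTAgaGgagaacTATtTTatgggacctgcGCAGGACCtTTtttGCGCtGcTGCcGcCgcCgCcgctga
Defa22: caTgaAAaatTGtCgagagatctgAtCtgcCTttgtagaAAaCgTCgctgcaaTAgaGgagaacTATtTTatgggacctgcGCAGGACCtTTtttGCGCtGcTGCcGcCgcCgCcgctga
Defa5: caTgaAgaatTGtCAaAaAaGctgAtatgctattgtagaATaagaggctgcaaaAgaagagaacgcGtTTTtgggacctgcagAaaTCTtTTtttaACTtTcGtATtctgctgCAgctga
Defa30 differed from Defa24 at 2 of these bases, Defa17 at 8, Defa5 at 32, Defa22 at 45 and Defa21 at 46. Over the whole coding sequence of 282 bases, Defa30 was 98.58% identical to Defa24 and Defa17 95.74%, whereas Defa21 and Defa22 were 99.29% identical to each other and 78.72% and 79.43% identical to Defa24. Defa38 and Defa39, with coding sequences of 351 bases, were 96.87% identical to each other.

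Of the 60-base words of each transcript, 18.9% of those of Defa24 also occurred in another gene's transcript, 41.9% of those of Defa30, 91.7% of those of Defa17, 66.6% of those of Defa21, 66.4% of those of Defa22 and 99.7% of those of Defa5. Of the 150 words nearest the 3′ end, the shared part was 16.7% for Defa24 and for Defa30. It was 81.3% for Defa17, 74.7% for Defa21 and for Defa22 and 99.3% for Defa5. Reads in shared words cannot be placed on 1 gene, so the split of UMIs between close copies is uncertain. Whether the sum over the family is firmer was not tested.

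The defensin genes measured here lie together on chromosome 8, from Defa21 (ENSMUSG00000074447, 21025545 to 21026516, plus strand) to Defa24 (ENSMUSG00000064213, 21734494 to 21735471, plus strand), each with 2 exons. Lyz1, the Paneth cell lysozyme, lies on chromosome 10 from 117287797 to 117292868 on the minus strand with 4 exons. Upstream windows could be read for 12 of 18 genes looked up, and Defa24 was not among the 12. The 250 bases before the annotated RefSeq starts of Defa21 and Defa22 were 100% identical, and Defa30 is shown beside them as the member most like Defa24 in sequence. They are given 5′ to 3′ on the gene's strand from RefSeq on GRCm38.p6. Capitals mark CTTTGA, the core that TCF/LEF factors of Wnt signalling recognise, and TATAAA, each searched on both strands.
Defa21 and Defa22: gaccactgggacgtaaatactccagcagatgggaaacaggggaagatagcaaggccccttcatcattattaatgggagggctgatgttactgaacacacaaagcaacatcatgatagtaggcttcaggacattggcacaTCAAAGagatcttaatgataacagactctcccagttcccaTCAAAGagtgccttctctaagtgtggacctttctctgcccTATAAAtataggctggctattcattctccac
Defa30: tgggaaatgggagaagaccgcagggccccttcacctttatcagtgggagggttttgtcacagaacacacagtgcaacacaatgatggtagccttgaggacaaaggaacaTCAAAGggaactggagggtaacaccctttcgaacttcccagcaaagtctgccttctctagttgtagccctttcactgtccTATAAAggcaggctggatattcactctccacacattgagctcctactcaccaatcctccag
The Defa21 window spans chr8:21025295-21025544, the Defa22 window chr8:21162027-21162276 and the Defa30 window chr8:21134400-21134649. CTTTGA had 2 matches in the shared Defa21 and Defa22 window and 1 in that of Defa30, and 13.8% of 32851 windows of this length held it. TATAAA had 1 match in each, and 12.4% of windows held it. The windows of Ang4, Itln1, Mptx2, Lyz1, Lyz2 and Reg4 held neither motif. That of Defa38 held TATAAA only and that of Pnliprp2 CTTTGA only, and Mmp7 had both, each in a different window.

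The 201 Paneth cells of library 2 and 199 of library 1 were 5.39% (exact 95% interval 4.69 to 6.17) and 4.91% (4.26 to 5.62) of the kept cells. The 2 intervals overlap. Like all intervals below, they cover counting error only, and the spread between mice is not in them. Median depth was 10150 and 13568 UMIs per cell, with 861 to 41622 UMIs in library 2 and 788 to 43618 in library 1. Members under 3000 UMIs numbered 46 and 44. The 2 libraries shared 40 barcode sequences, 3 of them at members, and none was a member in both. A UMI of Epcam, the epithelial adhesion molecule, was found in 370 of the 400 members.

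Cells on either side of the 5% share were few. From 4% to 5% there were 9 cells in library 2 and 6 in library 1, and from 5% to 6% again 9 and 6. The 15 cells just inside had a median of 1800 UMIs, a median share of 0.385% for Itln1 (intelectin-1, a lectin that binds microbial glycans) and 0.0201% for Mptx2 (mucosal pentraxin 2). The 15 just outside had 7511 UMIs, 0.632% and 0.0108%. Members at 20 to 30% numbered 220, with 2.86% of UMIs from Itln1 and 0.608% from Mptx2. Cells near the threshold thus held less of both markers than the bulk of the members did, on either side of it.

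**Figure D1:**
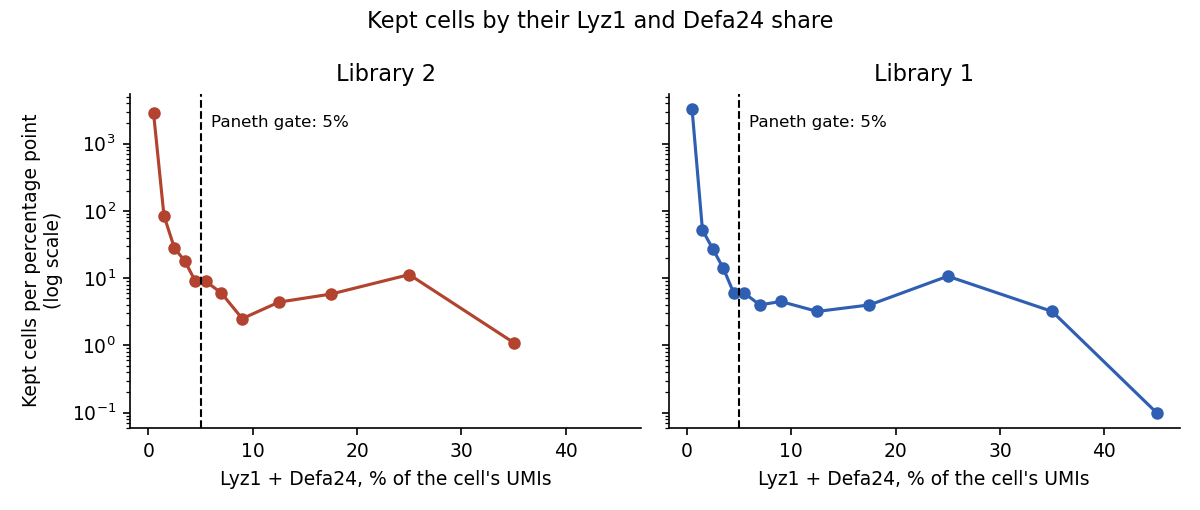
Number of kept cells per percentage point (log scale) against the share of a cell's UMIs from Lyz1 and Defa24, for library 2 (left) and library 1 (right); points stand at the middle of bins, the last bin, drawn as 40 to 50%, holds 1 cell of library 1, and empty bins are not drawn. Counts fall steeply up to the 5% threshold (dashed), with 9 and 6 cells per percentage point on each side of it, and stand at 11.3 and 10.7 cells per percentage point between 20 and 30%.

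The label was checked on Mptx2 and Itln1, which the rule did not use, with each cell thinned to 2000 UMIs. This left 171 members of library 2 and 173 of library 1, and 30 and 26 were too shallow. Mptx2 was found in 83.6% (77.2 to 88.8) and 88.4% (82.7 to 92.8) of them, against 4.74% and 4.81% of T cell-gated cells, which should not express it. Those are kept cells under the 5% share with a Ptprc UMI and at least 2 UMIs of Cd3d, Cd3e and Cd3g, with a median of 3257 UMIs in library 2 and 2490 in library 1, where members had 10150 and 13568. Itln1 was found in 98.8% and 100% of members, against 32.1% and 22.6% of T cell-gated cells. In thinned goblet-gated cells, defined below, Mptx2 was found in 9.55% and 7.24% and Itln1 in 66.7% and 55.7%. Without thinning, Mptx2 was found in 85.6% and 92.5% of members.

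Granule transcripts filled most of a Paneth cell's counts. The alpha-defensins and the other granule antimicrobials together took 60.7% of the summed UMIs in library 2 and 60.004% in library 1, with cell medians of 59.6% and 60.4% and a range from 7.43% to 79.4%. In the other kept cells, which include some past the Lyz1 and Defa24 share, they took 2.41% and 1.73%. Levels below are CPM, a gene's UMIs per 1000000 UMIs of the summed cells. They are shares of UMIs with no adjustment for transcript length, so they are compared between cells and not between genes.

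Defa24, on which the cells were chosen together with Lyz1, stood at 171340 CPM in library 2, against 173380 in library 1, and Lyz1 at 65771 and 67540 CPM. Defa30 stood at 96314 and 103770 CPM, Defa39 at 75956 and 77682, Defa38 at 53424 and 57493, and Itln1 at 27487 and 26912. The ratios of library 2 to library 1 of these 6 genes lay between 0.93 and 1.02. Those of Defa24 and Lyz1 stood on either side of 1 depending on the scaling and on the members kept, from 0.92 to 1.01 and from 0.88 to 1.04. The summed alpha-defensins were at 478450 CPM in library 2, against 477190 in library 1 (ratio 1.003). This sum includes Defa24, on which members were chosen, and fills much of the total it is scaled to. Its ratio is therefore held by the rule and the scale, and nothing is read from its lying near 1. The same sum in the other kept cells had a ratio of 1.57 between library 2 and library 1. Those cells include some past the Lyz1 and Defa24 share, left out by granins or Ptprc. In kept cells below that share the ratio was 1.38 (5200 CPM in library 2 and 3772 in library 1). In the T cell-gated cells it was 1.497 (4583 and 3063 CPM).

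A smaller set of granule genes stood higher in library 2. A gene was called apart when its CPM ratio of library 2 to library 1 was at least 1.5 in either direction with an exact 95% Poisson interval that left out 1, which is a rule of size and not a test. Defa21 was at 13697 CPM in library 2, against 7875 in library 1 (ratio 1.74, 1.71 to 1.77), Defa41 at 257 and 147 (1.75, 1.54 to 1.99) and Defa35 at 659 and 402 (1.64, 1.52 to 1.78). These were the 3 of 20 measured alpha-defensins that were apart, all higher, while 14 of the 20 had ratios above 1. Of all 8902 genes with at least 20 UMIs in Paneth cells, the minimum used for list members, 5.07% were apart and higher and 7.09% apart and lower. Ratios above 1 were found for 45.2% of them. Ang4, an angiogenin-family RNase with bactericidal activity, was at 17161 and 11067 CPM (1.55, 1.53 to 1.57). Its call ended when each cell had equal weight (1.29), when cells were thinned (1.38), without the 5% of members with most UMIs (1.44) and without members with 5 UMIs of Muc2, Fabp1 or Lgr5 (1.11). That of Defa21 ended with equal weight (1.43) and thinning (1.48). In the other kept cells, which include some past the 5% share, the ratios were larger, 3.06 for Defa21 and 2.70 for Ang4. In T cell-gated cells Defa21 was at 113 CPM in library 2, against 43.1 in library 1. The part of free RNA in these differences was not tested.

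The lectins Reg3g and Reg3b, bactericidal C-type lectins that enterocytes also make, were at 1922 and 614 CPM in library 2 and at 1002 and 316 CPM in library 1, with ratios of 1.92 (1.83 to 2.01) and 1.94 (1.78 to 2.11). Mptx2 went the other way without reaching the size for a call, at 6706 CPM in library 2, against 8140 in library 1 (0.82, 0.81 to 0.84). Lyz2, the lysozyme of macrophages and a close copy of Lyz1, had 22 and 15 UMIs over all members.

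**Figure D2:**
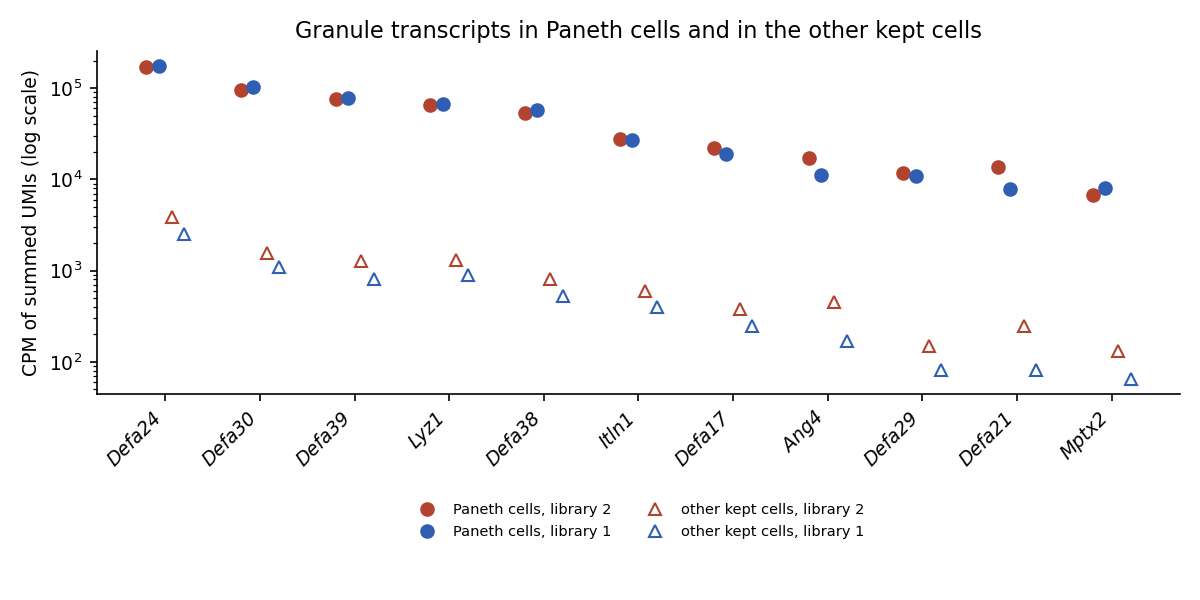
CPM of summed UMIs (log scale) for the 10 granule genes with most UMIs in Paneth cells and for Mptx2, in Paneth cells (filled circles) and in the other kept cells (open triangles), each for library 2 (red) and library 1 (blue). Paneth values of the 2 libraries nearly coincide for Defa24 (171340 and 173380) and stand apart for Ang4 (17161 and 11067) and Defa21 (13697 and 7875), while in the other kept cells all 11 genes are higher in library 2. The other kept cells include some past the Lyz1 and Defa24 share.

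Within each library, Paneth cells differed from one another in which defensins they held. Among members with at least 1000 UMIs, the share of a cell's granule UMIs from Defa24 ran from 24.9% at the 10th percentile to 40.8% at the 90th in library 2, and from 25.8% to 38.4% in library 1. That of Defa30 spanned 2.23% to 20.7% and 6.55% to 22.7%, and that of Defa21 0.0509% to 4.05% and 0.0165% to 2.60%. No Defa21 UMI was found in 18 of 199 such cells of library 2 and 19 of 194 of library 1.

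How these shares varied together was described by Spearman's rho across the 128 members of library 2 and 137 of library 1 with at least 2000 granule UMIs. The values are shares of 1 total, so that a rise in one lowers the rest, and cells of 1 library share their depth and free RNA, so no p is given. Defa21 and Defa22, the pair with identical upstream windows printed above, had rho of 0.84 in library 2 and 0.67 in library 1. Defa21 and Defa5 had 0.68 and 0.67, Defa29 and Defa5 0.56 and 0.62, and Ang4 and Defa22 0.52 and 0.56. Defa30 and Defa38 had 0.42 and 0.50. Some pairs had a negative rho, with −0.69 and −0.51 for Defa38 and Ang4, −0.50 and −0.55 for Defa30 and Ang4, and −0.48 and −0.44 for Defa30 and Defa22. Other pairs were near 0, with 0.066 and −0.023 for Defa38 and Defa29 and 0.058 and 0.092 for Ang4 and Defa29. Defa21 and Defa22 share much of their sequence, and the part of reads placed on either copy in their rho was not tested.

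Because granule genes filled the counts, other genes were also compared as CPM of the UMIs outside the granule genes. The members were chosen by expression, so all contrasts with the other kept cells are descriptions. Of 8460 genes outside the granule lists, 4.16% were at least 2-fold higher in Paneth cells on this scale and 3.33% at least 2-fold lower, and nothing is read from these shares. Of the same genes 45.5% were above the other kept cells. Of 13 measured genes of granule processing and zinc transport, 8 were 2-fold higher. Mmp7, the defensin-activating protease, was at 7457 CPM outside granule genes in Paneth cells and 77.5 in the other kept cells. Clps, the pancreatic lipase cofactor colipase, was at 8152 and 56.3, the lipase Pnliprp2 at 2953 and 19.99, and Habp2, a serine protease, at 330 and 3.94. The zinc transporter Slc30a2, which loads zinc into Paneth granules in mice, was at 83.9 and 14.3. Thinning was to a total of all UMIs, most of which are granule UMIs in the members. Thinned members as a group thus kept fewer UMIs outside the granule genes than thinned cells of the other gates. This bears on all detection values of thinned cells for genes outside the granule lists. Thinned to 2000 UMIs, Mmp7 was found in 97.7% of members in each library, against 5.79% of T cell-gated cells of library 2 and 2.88% of library 1. In thinned goblet-gated cells, defined below, it was found in 34.8% and 25.3%. Clps was found in 94.7% and 95.4% of thinned members, against 20.5% and 15.9% of goblet-gated cells. For Pnliprp2 these values were 81.3% and 71.7%, against 4.67% and 3.62%.

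Most of the secretory apparatus was higher too, by less, where 45.5% of all genes compared were above the other kept cells. Of 32 measured genes of the secretory machinery, 29 were above the other kept cells and 5 were 2-fold higher, with Syt7 at 53.9 and 11.1 CPM outside granule genes and Rab3d, a GTPase of secretory granules, at 249 and 65.2. Of 26 genes of the unfolded protein response 23 were above and 7 were 2-fold higher. Herpud1, which serves degradation of misfolded proteins at the endoplasmic reticulum, was at 823 and 161 CPM outside granule genes, and Ern2, the mucosal IRE1 sensor, at 131 and 28.9. Goblet-gated cells, defined in the next paragraph, stood higher still: the summed secretory machinery was at 9542 CPM outside granule genes in Paneth cells, 11471 in goblet-gated cells and 6636 in the other kept cells, and the unfolded protein response at 13296, 23697 and 9371.

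Of 21 factors of secretory and Paneth cell fate, 9 were 2-fold higher in Paneth cells than in the other kept cells. Nupr1, a stress-induced chromatin protein, was at 868 CPM outside granule genes in Paneth cells and 13.3 in the other kept cells. In thinned cells it was found in 37.4% and 41.6% of members and in 13.2% and 10.6% of goblet-gated cells. Bhlha15, also called Mist1, a factor of granule architecture in secretory cells, was at 158 and 9.25. Sox9, required for Paneth cells in mice, was at 382 and 109. Atoh1 and Spdef, which also serve goblet cells, were at 86.9 and 78.4 in Paneth cells, 28.4 and 25.8 in the other kept cells, and 193 and 177 in goblet-gated cells. The goblet gate took cells under the 5% share with at least 0.5% of UMIs from Muc2, Fcgbp, Clca1 and Zg16. Sox9 and Bhlha15 stood the other way round there, at 147 and 51.5 CPM outside granule genes in goblet-gated cells.

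Wnt3, the Wnt ligand of the Paneth cell niche, was at 104 CPM outside granule genes in Paneth cells and 3.32 in the other kept cells. Between the libraries its 109 and 99 UMIs gave 45.8 CPM in library 2, against 37.1 in library 1 (ratio 1.24, 0.93 to 1.64). In thinned cells it was found in 8.19% (4.55 to 13.4) and 5.20% (2.41 to 9.65), against 0 of 190 and 0 of 208 T cell-gated cells, with upper bounds of 1.92% and 1.76%. It was also found in 5.41% and 5.19% of thinned cells under the 5% share with at least 5 UMIs of the granins and in 3.46% and 3.06% of thinned goblet-gated cells. Without thinning, Wnt3 was found in 35.8% and 30.7% of members, 22.6% and 19.8% of those granin cells and 10.4% and 7.42% of goblet-gated cells. Egf had 6 UMIs in library 2, against 19 in library 1 (ratio 0.35, 0.12 to 0.92). The Notch ligand Dll4 had 41 and 44 UMIs (1.05, 0.67 to 1.64) and Dll1 56 and 28 (2.24, 1.40 to 3.67). Both were found more often in thinned goblet-gated cells than in thinned members. Dll4 was found in 18.1% and 15.9% of goblet-gated cells, against 4.09% and 2.31% of members. Dll1 was found in 27.4% and 28.4%, against 4.68% and 1.73%. For both ligands the order was the same without thinning. Of 10 measured niche ligands, 5 were higher and 5 lower in library 2. Against the other kept cells, 3 of the 7 niche ligands compared were above and 1 was 2-fold higher, with a median log2 ratio of −0.08. Of all genes compared 45.5% were above. Cd24a, a surface protein used to sort Paneth cells, was at 3336 CPM outside granule genes in Paneth cells and 445 in the other kept cells, and at 1279 CPM in library 2, against 1363 in library 1.

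Samd5, at 126 CPM outside granule genes in Paneth cells and 0.704 in the other kept cells, had the highest such ratio among genes outside the granule lists with at least 100 UMIs in Paneth cells. At the other end, mt-Co1 was at 6770 CPM outside granule genes in Paneth cells and 21659 in the other kept cells, and mt-Nd5 at 2468 and 7574. All 10 measured mitochondrially encoded genes were lower in Paneth cells than in the other kept cells on this scale. The list summed to 57058 CPM outside granule genes in Paneth cells and 107140 in the other kept cells. Goblet-gated cells had 75872 and T cell-gated cells 45056. As shares of all UMIs, granule genes included, the cell medians were 2.26% and 2.16% in Paneth cells of library 2 and library 1. In the other kept cells these medians were 9.43% and 10.3%. Immediate early genes, which a stimulus such as tissue dissociation switches on within a short time, were higher: 20 of 21 were above the other kept cells and 11 at least 2-fold, among them Nr4a1 at 246 and 51.4 CPM outside granule genes and Atf3 at 477 and 140.2. Of all genes compared 45.5% were above.

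Within the Paneth cells, Mmp7, Clps and Nupr1 stood higher at a higher Lyz1 and Defa24 share in both libraries. These genes were picked after their values were seen, and the share is the value that chose the members. The members were split at shares of 10% and 20%, which gave 26, 51 and 124 cells in library 2 and 23, 36 and 140 in library 1. Mmp7 was at 3623, 4871 and 9738 CPM outside granule genes in library 2 from the lowest to the highest share, and at 1968, 3792 and 8908 in library 1. Clps was at 818, 4132 and 11266 in library 2 and at 1427, 3630 and 10252 in library 1. Nupr1 was at 149, 325 and 1131 in library 2 and at 198, 336 and 1192 in library 1. Wnt3 was at 85.0, 84.9 and 131 in library 2 and at 17.2, 54.1 and 120 in library 1. Pnliprp2, Habp2, Cd24a and Thbs1 also rose with the share in both libraries. So did Fabp1, an enterocyte marker, at 191, 355 and 456 in library 2 and at 155, 170 and 287 in library 1. The enterocyte, enteroendocrine and T cell marker lists rose likewise in both. Some other genes did not keep this order in both libraries. Rnase1, a secreted ribonuclease, was at 2051, 1928 and 1847 in library 2 and at 1152, 1291 and 2351 in library 1. Bhlha15 was at 170, 125 and 209 in library 2 and at 77.3, 61.9 and 169 in library 1. The unfolded protein response list was at 17086, 14313 and 14199 in library 2 and at 12401, 8609 and 13553 in library 1. All granule genes are left out of the total of this scale.

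Members with the lowest share carried goblet cell transcripts. The 12 goblet markers together stood at 105800, 49868 and 28747 CPM outside granule genes in library 2, from the lowest to the highest share, and at 52957, 17493 and 22361 in library 1. Goblet-gated cells had 77507 on the same scale in library 2, against 63492 in library 1, and the other kept cells of both libraries together 9987. Fcgbp, a mucus-binding protein of goblet cells, was at 22091, 6005 and 2246 in library 2 and at 7864, 1732 and 1079 in library 1. Muc2, the gel-forming mucin, was at 11901, 4801 and 2241 in library 2 and at 3721, 1318 and 1412 in library 1. In the cells with a share of 5 to 10%, 26 in library 2 and 23 in library 1, the goblet markers thus stood above the goblet-gated cells of the same library in library 2 and below them in library 1. No doublet caller was run, and a cell holding both programmes and a droplet holding both cells cannot be told apart here. Only 37 members of library 2 and 75 of library 1 held fewer than 5 UMIs of each of Muc2, Fabp1 and Lgr5, a bound that deeper cells exceed more easily.

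**Figure D3:**
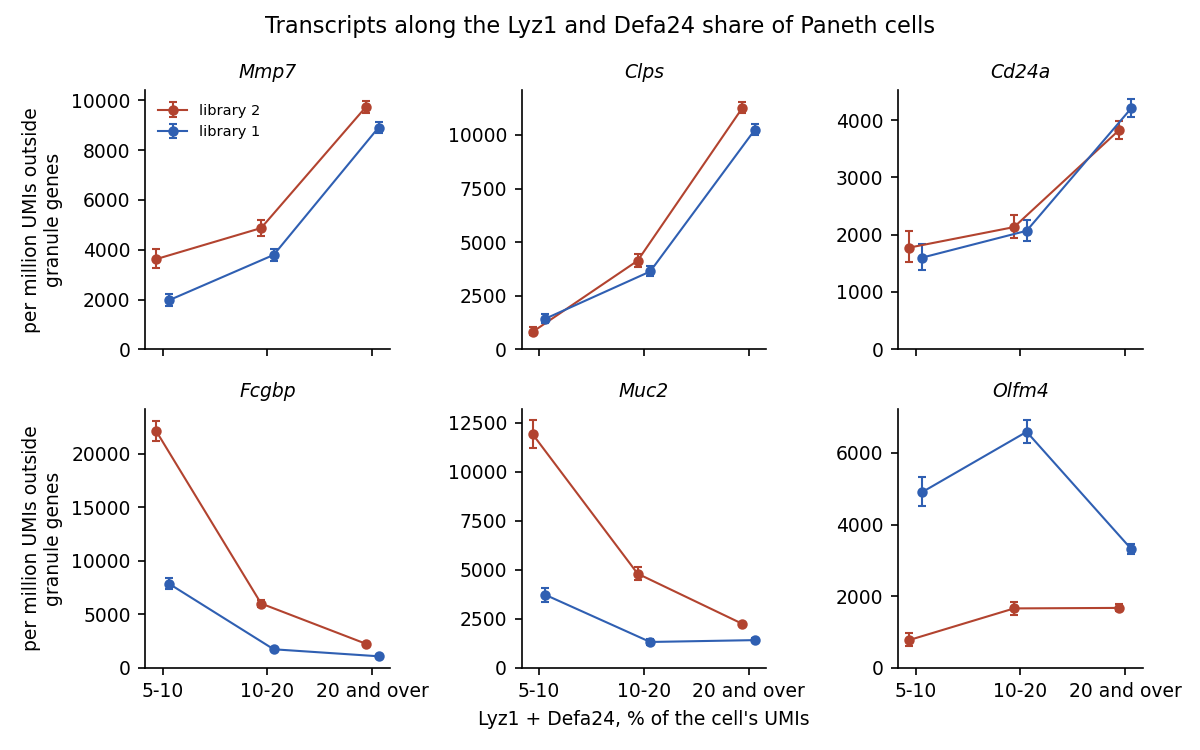
CPM outside granule genes, with exact 95% Poisson intervals, for 6 genes in Paneth cells grouped by the share of Lyz1 and Defa24, for library 2 (red) and library 1 (blue). Mmp7, Clps and Cd24a stand highest at 20% and over in both libraries (Mmp7 at 9738 and 8908), Fcgbp and Muc2 at 5 to 10% (Fcgbp at 22091 and 7864), and Olfm4 is higher in library 1 in each group.

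The libraries were compared gene by gene within the Paneth cells. Of 3873 genes with at least 100 UMIs, 206 were apart and higher in library 2, or 5.32%, and 244 apart and lower, or 6.3%. The median log2 ratio over all of them was −0.03. From 20 UMIs on, the median was −0.05 and 45.2% of 8902 genes were higher in library 2. The split between higher and lower genes differed between settings, for causes that were not tested: with scaling without granule genes it was 227 and 211, with scaling by the median ratio 236 and 208, without the 5% of members with most UMIs it was 207 and 112, with equal weight for each cell 530 and 307, with cells thinned to 2000 UMIs 63 and 13, and with members at a share of 20% and over 123 and 90. Of the 206 higher genes, 62 were also apart and higher in the other kept cells, and of the 244 lower genes 8 were also apart and lower there. In those cells 115 of the 3873 genes were apart and higher, or 2.97%, and 19 apart and lower, or 0.491%, so the shared genes made up 53.9% and 42.1% of these lists and 30.1% and 3.28% of those of the Paneth cells. No gene was apart in opposite directions.

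**Figure D4:**
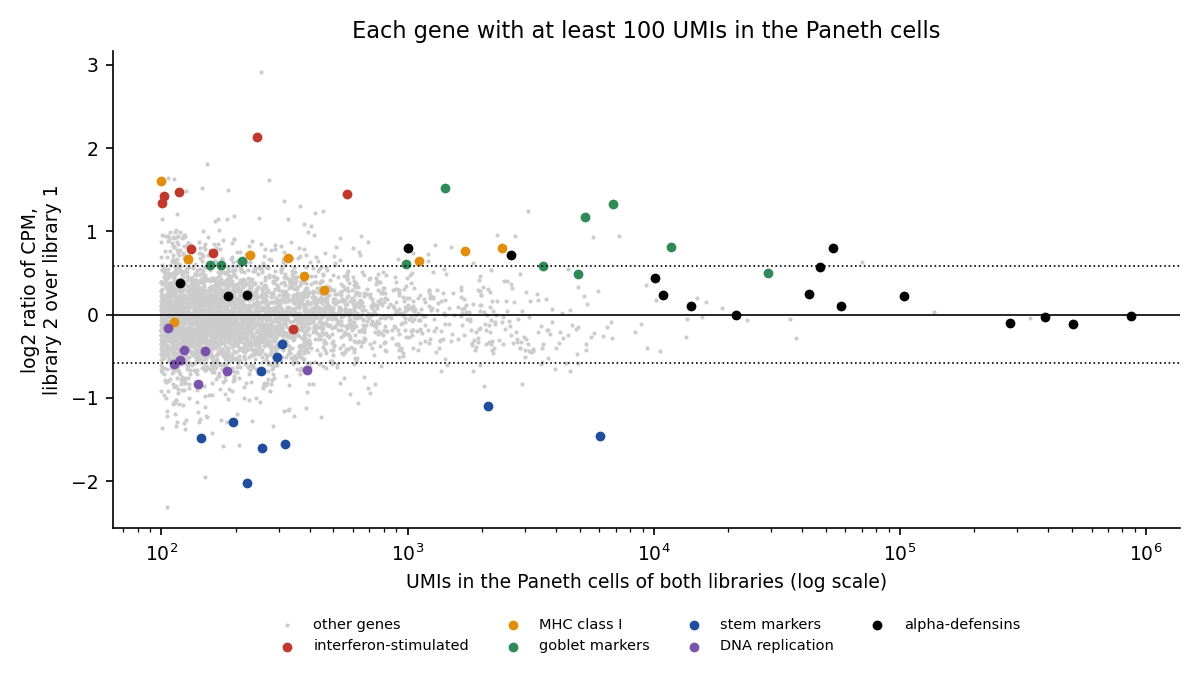
Log2 ratio of CPM in library 2 over library 1 against the UMIs of the gene in Paneth cells (log scale), for the 3873 genes with at least 100 UMIs, with 6 lists coloured; dotted lines mark ratios of 1.5 in either direction. Interferon-stimulated and MHC class I genes lie mostly above 0, as do goblet markers, stem markers lie below 0, and the alpha-defensins with most UMIs lie close to it.

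Interferon-stimulated genes, which cells induce against viruses, were higher in library 2. Of 22 measured members, 21 were higher and 19 apart, with a median log2 ratio of 1.44. Oasl2, an oligoadenylate synthetase-like antiviral protein, had 82.0 CPM in Paneth cells of library 2, against 18.7 in those of library 1 (ratio 4.38, 3.19 to 6.10), and a UMI of it was found in 109 of 201 members and 35 of 199. Ifi27l2b was at 169 and 61.8 CPM (2.74, 2.28 to 3.31) and Rnf213, an antiviral ubiquitin ligase, at 55.9 and 19.9 (2.82, 2.03 to 3.95). Irf1, which interferon gamma induces, was the member not higher, at 63.5 and 71.6 CPM (0.89, 0.71 to 1.10). The list moved alike elsewhere: its median was 1.59 in the other kept cells, and its summed CPM had ratios of 2.29 in Paneth cells and 2.12 in T cell-gated cells.

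MHC class I genes, which present peptides to CD8 T cells, were higher too, with 14 of 15 measured members higher and 10 apart and a median of 0.71. H2-K1 was at 618 CPM in library 2, against 353 in library 1 (1.75, 1.61 to 1.90), the light chain B2m at 434 and 256 (1.70, 1.54 to 1.87), and the peptide transporter Tap1 at 30.7 and 10.1 (3.03, 1.93 to 4.91). The median in the other kept cells was 0.72. MHC class II differed: 4 of 5 members were higher in Paneth cells but none was apart, with a median of 0.39, against 1.26 in the other kept cells. Cd74, the invariant chain, was at 63.5 CPM in Paneth cells of library 2 and 64.4 in those of library 1 (0.99, 0.79 to 1.23), whereas its ratio in the other kept cells was 2.40. That difference between cells was not tested.

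Genes of the immediate early and chaperone programmes were lower in library 2. Of 22 immediate early genes 20 were lower and 3 apart, with a median of −0.43, against −0.63 in the other kept cells. Fos was at 486 CPM in library 2, against 695 in library 1 (0.70, 0.65 to 0.75) and Egr1 at 506 and 633 (0.80, 0.74 to 0.86), neither past the size for a call. Nr4a1, an orphan nuclear receptor, was apart at 77.0 and 116 CPM (0.66, 0.55 to 0.80). Of 9 heat shock genes 8 were lower and 2 apart: Hsp90aa1, the inducible cytosolic chaperone, at 94.2 and 180.2 CPM (0.52, 0.44 to 0.61) and Hsp90ab1 at 687 and 1099 (0.63, 0.59 to 0.66). All 30 ribosomal protein genes were lower with 1 apart, at a median of −0.31, and the median in the other kept cells was −0.20.

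Transcripts of stem cells were the lowest group in Paneth cells of library 2. All 10 stem markers were lower and 8 apart, with a median log2 ratio of −1.38, against −0.30 in the other kept cells. Olfm4, a secreted glycoprotein of crypt base columnar cells, was at 621 CPM in library 2, against 1710.5 in library 1 (0.36, 0.34 to 0.38), and Lgr5, their R-spondin receptor, at 24.4 and 74.2 (0.33, 0.24 to 0.44). Igfbp4 was at 16.8 and 68.2 CPM (0.25, 0.17 to 0.35), the stem cell factor Ascl2 at 14.7 and 41.2 (0.36, 0.24 to 0.53), and the Wnt antagonist Sfrp5, which ranked first among the lower genes, at 6.73 and 33.3 (0.20, 0.11 to 0.35). The transporter Slc12a2 was at 262 and 559 CPM (0.47, 0.43 to 0.51).

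The stem cell transcripts were unevenly spread over the members. The 10 members with most Olfm4 UMIs held 38.1% of them in library 2 and 36.6% in library 1, while the median member had 5 and 6 UMIs. Lgr5 was found in 40 of 201 members of library 2 and 70 of 199 of library 1, and in 4.09% and 11.0% of thinned members, against 0.526% and 1.44% of T cell-gated cells. By the Lyz1 and Defa24 share, Olfm4 was at 776, 1659 and 1672 CPM outside granule genes in library 2 and at 4899, 6588 and 3309 in library 1. With members at 20% and over alone, the median of the stem markers was −0.93, and without the 5% of members with most UMIs −1.08. In T cell-gated cells the summed stem markers were at 423 CPM in library 2, against 740 in library 1 (ratio 0.57, 0.50 to 0.65), beside 0.40 (0.39 to 0.42) in Paneth cells and 0.86 in the other kept cells. The part of free RNA and of droplets with 2 cells in the Paneth value was not tested.

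Genes of DNA replication and mitosis were lower alongside. All 16 measured replication genes were lower in library 2 and 9 apart, with a median of −0.64, and 16 of 18 mitosis genes were lower and 7 apart, with a median of −0.55. The medians in the other kept cells were −0.39 and −0.23. In T cell-gated cells the summed lists were higher in library 2, with ratios of 1.64 for replication and 1.91 for mitosis, beside 0.62 and 0.66 in Paneth cells. The sliding clamp Pcna was at 58.9 CPM in library 2, against 93.3 in library 1 (0.63, 0.51 to 0.78), and the topoisomerase Top2a at 74.4 and 132 (0.56, 0.47 to 0.68). In thinned members Top2a was found in 17.5% in library 2 and 16.2% in library 1. With equal weight for each cell the list medians were −0.50 for replication and −0.22 for mitosis. Mki67, a protein of cycling cells, was found in 14.0% and 15.03% of thinned members, with intervals that overlap widely. The 10 members with most Mki67 held 38.2% of its UMIs in library 2 and 41.3% in library 1.

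Markers of the other differentiated lineages were higher in Paneth cells of library 2. All 11 measured goblet markers were higher and 9 apart, with a median of 0.61, against 0.67 in the other kept cells. Fcgbp was at 1984 CPM in library 2, against 791 in library 1 (2.51, 2.38 to 2.64), Muc2 at 1479 and 657 (2.25, 2.13 to 2.39), and Clca1, a secreted protease of mucus, at 429 and 149.5 (2.87, 2.55 to 3.23). The 10 members with most Clca1 held 67.0% and 70.4% of its UMIs, and those with most Fcgbp 48.1% and 55.9%. Guca2a, the hormone guanylin, was at 880 and 372 CPM (2.37, 2.19 to 2.55). All 15 enterocyte markers were higher and 10 apart, with a median of 0.91, among them Apoa1 at 172 and 89.2 CPM (1.92, 1.64 to 2.27), and the brush border protease Mep1b was at 84.1 and 27.4 (3.07, 2.34 to 4.08).

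Gip, a hormone of enteroendocrine cells, ranked first among the higher genes, although the rule limits granin UMIs in each member. All 10 measured enteroendocrine markers were higher and 6 apart. Gip was at 92.9 CPM in library 2, against 12.4 in library 1 (7.52, 5.20 to 11.2), spread over 116 of 201 members and 31 of 199 with at most 6 UMIs in any cell. Its ratio in the other kept cells was 7.42, and T cell-gated cells had 49.7 and 6.64 CPM. Cck was at 48.8 and 13.9 CPM (3.52, 2.41 to 5.24) and Ghrl at 34.9 and 11.2 (3.11, 2.02 to 4.88). Of the T cell markers all 8 measured were higher and 4 apart, with Gzma, a cytotoxic granule protease, at 105 and 49.1 CPM, in cells chosen to hold no Ptprc UMI. Gzma was found in 24.6% and 9.83% of thinned members and in 13.7% and 6.64% of stem-gated cells, which held at least 2 Lgr5 UMIs and at least 0.5% of UMIs from Olfm4. The summed goblet markers in T cell-gated cells had a ratio of 1.72 (2196 and 1274 CPM), beside 1.64 in Paneth cells, and the enteroendocrine markers 2.25 beside 2.55. The enterocyte markers had 0.77 in T cell-gated cells (1222 and 1589 CPM), beside 1.72 in Paneth cells.

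**Figure D5:**
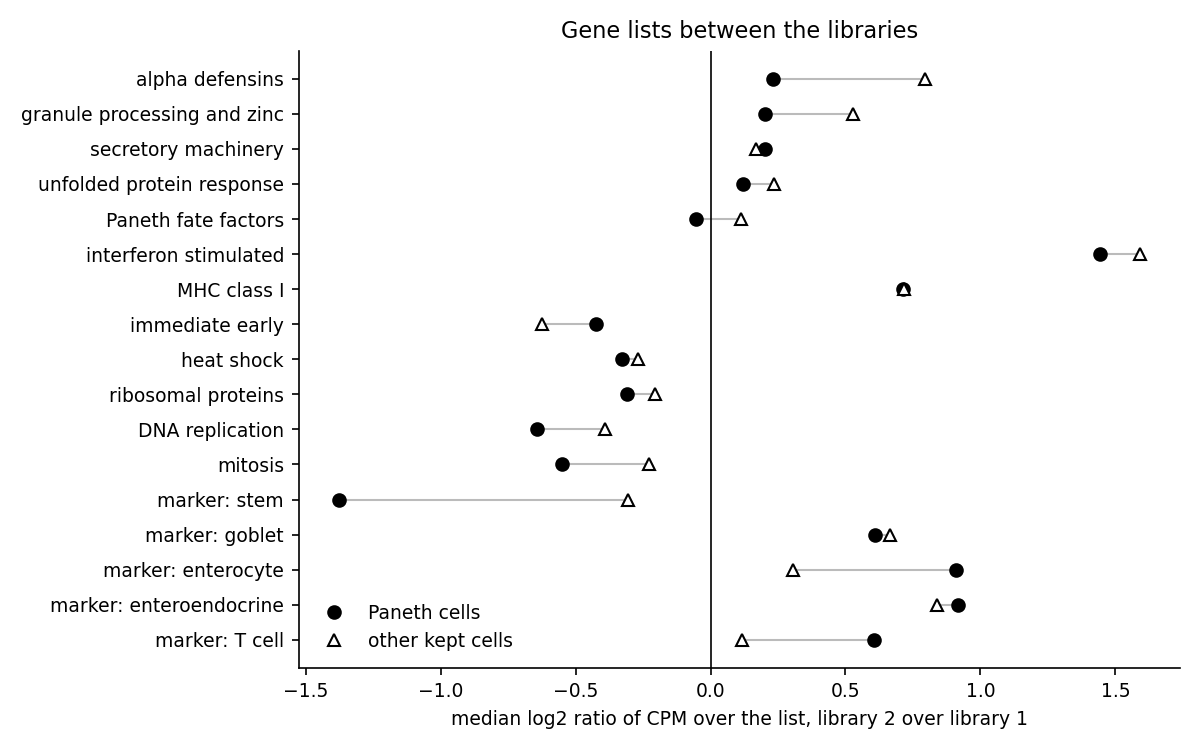
Median log2 ratio of CPM in library 2 over library 1 for 17 gene lists, in Paneth cells (filled circles) and in the other kept cells (open triangles), over list members with at least 20 UMIs in Paneth cells. The interferon list lies to the right in both (1.44 and 1.59), the stem markers lie farther left in Paneth cells (−1.38) than in the other kept cells (−0.30), and the alpha-defensins nearer to 0 in Paneth cells (0.23) than in the other kept cells (0.80). The other kept cells include some past the Lyz1 and Defa24 share.

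Genes of granule making and of cell fate were read against all genes with at least 20 UMIs, of which 5.07% were apart and higher and 7.09% apart and lower. Of those genes 45.2% were higher in library 2. Of 15 other granule antimicrobials 13 were higher in library 2 and 6 apart, with a median of 0.51. Of 13 genes of granule processing and zinc handling 10 were higher and 2 apart, the zinc importer Slc39a4 and the granin Chgb, which the rule limits, with a median of 0.20. Of 32 secretory genes 27 were higher in library 2 and none was apart, with a median of 0.20. Of 27 unfolded protein response genes 20 were higher and 2 apart, Agr2 (1.502, 1.40 to 1.61) and Ern2 (1.63, 1.26 to 2.0999), with a median of 0.12. In the other kept cells the medians were also above 0. They were 0.62 for the other granule antimicrobials, 0.53 for granule processing and zinc, 0.17 for the secretory genes and 0.23 for the unfolded protein response. In Paneth cells Mmp7 was at 3176 CPM in library 2, against 2765 in library 1 (1.15, 1.11 to 1.19) and Clps at 3414 and 3074 (1.11, 1.08 to 1.15). Of the 21 fate factors 3 were apart and higher and 5 apart and lower, among them Atoh1 at 42.1 and 27.7 CPM (1.52, 1.11 to 2.08), Creb3l1, a factor of secretory capacity, at 87.5 and 48.0 CPM (1.82, 1.46 to 2.29) and the Notch target Hes1 at 47.1 and 102 (0.46, 0.37 to 0.58). Sox9 was at 140 and 162 CPM (0.87, 0.75 to 1.0004) and Nupr1 at 338 and 350 (0.96, 0.88 to 1.06). Of 20 autophagy genes 1 was apart, Irgm1 at 21.9 and 13.1 CPM (1.67, 1.07 to 2.64).

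The lists of stress, cell death and metabolism are read against the same 5.07% and 7.09%, and counts of higher genes against the same 45.2%. Of 19 genes of apoptosis and necroptosis 11 were higher in library 2, with 4 apart on that side, 3 apart on the other and a median of 0.17. Of 14 genes of mTORC1 and energy sensing 6 were higher, with 2 apart on each side and a median of −0.13. Of 14 glucocorticoid response genes 9 were lower in library 2 and 3 apart, with a median of −0.21: the receptor Nr3c1 at 22.7 CPM in library 2, against 36.0 in library 1 (0.63, 0.44 to 0.89), Ddit4 at 34.1 and 51.3 (0.66, 0.50 to 0.88) and Errfi1 at 5.89 and 11.99 (0.49, 0.24 to 0.95). Of 12 senescence and p53 genes 1 was apart and higher, the cyclin-dependent kinase inhibitor Cdkn2b with 31 and 17 UMIs, and 2 apart and lower, among them Trp53 at 41.6 and 70.4 CPM (0.59, 0.46 to 0.76). Cdkn1a, which encodes p21, was at 77.0 and 82.4 CPM (0.93, 0.76 to 1.14). Of 17 glycolytic genes 12 were higher and 2 apart, and of 20 genes of oxidative stress defence 13 were higher and 3 apart, with Duox2, which releases hydrogen peroxide at the epithelial surface, at 29.4 and 9.37 CPM (3.14, 1.97 to 5.18).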

How the data were processed

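The authors deposited whole-number UMI counts per gene and barcode for both libraries in 1 matrix; the values are whole and the totals differ between cells, so they were taken as not normalized. Per the submitters' processing notes, Cell Ranger 2.1.1 and mm10 were used; the calling of cells is not stated there. The labels' protocols name a 3′ droplet kit, but the barcodes do not have that kit's length, so the chemistry is not settled. The 31253 features were merged to 31205 symbols, and UMIs were summed over the cells of each group and scaled to CPM. Members held 2377879 UMIs in library 2 and 2668816 in library 1. Ratios carry exact conditional Poisson 95% intervals and shares of cells Clopper-Pearson intervals. The code was tested on simulated data. No doublet caller was run, and alternatives that leave out cells stand in the closing section. The gates for goblet, stem, granin and T cells leave out cells at 5% or more of Lyz1 and Defa24, a choice made after the data were seen. The other kept cells are all 7384 that are not members, some past the share but left out by granins or Ptprc.

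The members and the 36 lists (669 entries, 30 of them without a match, 28 of those alpha-defensin symbols) were chosen with earlier results of these data known. Named genes were the 10 granule genes with most UMIs and the given markers, the 12 highest and 12 lowest of the genes apart by the interval bound nearest to 1, the 20 highest and 5 lowest beside the other kept cells, and in each list up to 4 by UMIs and up to 3 by that bound, with the genes of 3 short lists where the text turns on them. Lyz2, Syt7, Rab3d, Herpud1 and Atf3 fall outside that rule and were named after their values were seen. Before the filter there were 6446 barcodes in library 2 and 6310 in library 1. Python 3.11.15, NumPy 2.4.6, SciPy 1.17.1, pandas 2.3.3 and Matplotlib 3.10.9 were used.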

Additional observations from a re-analysis of the deposited data

Results flagged for a closer look

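The cell filter left out 79 barcodes that pass the Paneth gate, 46 in library 2 and 33 in library 1. Of them 77 had under 500 genes and 5 had over 25% mitochondrial UMIs, and their median was 721 UMIs. They stand outside the values above, and they hold Lyz1 and Defa24 at the level that defines a member. With no cell filter, the Paneth cells numbered 247 in library 2 and 232 in library 1.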

How the results depend on the processing

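No paired analysis was possible because each group is 1 pooled library and no label ties a barcode suffix to a sample. Leaving out a replicate could not be run with 1 library per group. Shares of Paneth cells were 3.83% in library 2 and 3.68% in library 1 with no cell filter, 8.22% and 9.06% with 1000 genes and 10% mitochondrial UMIs, 0.993% and 1.85% without members with 5 UMIs of Muc2, Fabp1 or Lgr5, and 3.33% and 3.45% at a share of 20%, added after seeing the data, as was a minimum of 5000 UMIs. Genes apart numbered 333 higher and 472 lower from 50 UMIs on, 89 and 98 from 200, 35 and 52 at a fold of 2, 63 and 13 in thinned cells, 22 and 39 without members with Muc2, Fabp1 or Lgr5, 123 and 90 at a share of 20%, 530 higher with equal weight per cell, and 112 lower without the top 5% of UMIs. The higher share of genes apart was 45.8%, against 63.3% with equal weight and 82.9% in thinned cells, where the median of all genes was 0.14.

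List medians (log2) that moved by more than the median half-width of their members' counting intervals included those of the goblet markers, at 0.99 with a share of 3%, 0.47 with 20%, 0.81 without members with Muc2, Fabp1 or Lgr5, 0.97 with equal weight and 1.14 in thinned cells; of the alpha-defensins, at 0.0092 without those members, 0.16 with equal weight and 0.065 in thinned cells; of the stem markers, at −0.93 with a share of 20%; and of the ribosomal proteins, at −0.50 without those members and −0.15 in thinned cells. The other granule antimicrobials, at 0.51, moved to between 0.13 without those members and 0.62 with a share of 3%, the epithelial markers, at 0.03, to between 0.17 and 0.30, and DNA replication to −1.85 without those members. The mitochondrially encoded list lay between −0.18 with a share of 3% and −0.018 with 1000 genes and turned, at 0.0089 with a share of 20% and 0.32 without those members, against −0.11. The interferon median kept between 1.26 and 1.67. The 26 named genes that were apart gave 337 values under alternatives, all in the same direction, 17 of them short of the call, 7 in thinned cells and 7 without the members with Muc2, Fabp1 or Lgr5. The causes were not tested.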
